A study of Danio rerio with 9 samples.

Results

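Skeletal muscle takes up glucose, stores it as glycogen, breaks it down again and sends the resulting pyruvate either to lactate or into mitochondria, and 83 of the 32520 genes measured in zebrafish muscle carry the names of the carriers, enzymes and regulators of these steps. They were chosen by gene name alone, with no measured value in the rule. Earlier results of these data were known when the choice was made. The 83 comprise 18 glucose transporters (slc2a), 4 regulators of glucose uptake (txnip, tbc1d1, tbc1d4), 9 genes of glycogen synthesis (ugp2, gyg, gys, gbe1), 6 of glycogen breakdown (pyg, agl), 6 subunits of phosphorylase kinase (phk) and 7 glycogen targeting subunits of protein phosphatase 1 (ppp1r3). They further comprise 11 genes of the pyruvate switch, that is pyruvate dehydrogenase kinases (pdk), their opposing phosphatases (pdp) and mitochondrial pyruvate carriers (mpc), then 7 carriers of lactate and pyruvate (slc16a1, slc16a3, slc16a7, slc16a8) and 12 other carriers of the slc16 family. The remaining 3 names, ppp1r32, ppp1r35 and ppp1r37, match only by their digits and are not glycogen targeting subunits. Of the 83 genes, 60 passed the filter on low counts and were tested, 23 were not, and 3 of those 23 were at 0 in every library (gys2, slc16a5b and the gene spelled slc16a7 in lower case, which shares its name with a second gene ID).

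The study asked how loss of bves, which encodes a membrane protein of the Popeye domain family, and swimming training alter skeletal muscle. RNA sequencing covered 9 libraries, 3 each of bves KO-EX, bves KO and WT fish, all male, and 12 months old when they were selected. The bves KO fish carry frameshift deletions made with CRISPR/Cas9 and a pair of guide RNAs against exon 2, and which of several mutant lines gave the muscle is not given in the sources used here. The bves KO-EX fish were bves KO fish that swam for 8 weeks, 1.5 h a day with 1 day of rest after every 3, against a flow of 10 cm/s and later 16 cm/s, whereas bves KO and WT fish were kept without training. WT fish were of the AB strain, and founders of the bves KO lines were crossed with WT fish. Muscle was taken between the dorsal and the caudal fin, each library held muscle pooled from 2 fish, and no group of trained WT fish was sequenced, so that training can be compared only within bves KO.

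Glycogen synthase, glycogenin and branching enzyme build glycogen, and phosphorylase with debranching enzyme degrades it. Phosphorylase kinase switches phosphorylase on, while protein phosphatase 1, held on the glycogen particle by its targeting subunits, reverses this and activates glycogen synthase. Pyruvate dehydrogenase kinases phosphorylate and thereby inhibit pyruvate dehydrogenase, the entry of pyruvate carbon into the mitochondrial oxidation of fuel, and pyruvate dehydrogenase phosphatases undo it. Fast muscle of fish is known for its reliance on glycogen during bursts of swimming.

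Estimated counts summed to 17422188 to 18860779 per library, and the 83 genes took 0.299% to 0.551% of them. Expression between libraries is given as CPM, counts scaled to library size by TMM (factors 0.763 to 1.17, lowest in WT replicate 2 and highest in bves KO-EX replicate 2), and levels between genes as the deposited TPM, which are scaled for gene length. The 13 mitochondrially encoded genes took 11.8% to 23.4% of the counts, most in replicate 1 of bves KO-EX. Of 14 skeletal muscle markers all were detected and 13 tested (1 called higher in bves KO-EX against bves KO and 2 in bves KO-EX against WT), with a summed level of 132089 to 173033 TPM in bves KO-EX, 160778 to 180412 in bves KO and 122610 to 151144 in WT. Their summed TPM was higher in every bves KO than in every WT library, and the part of this in the results was not tested. All marker sums given here are TPM without TMM scaling. Whether an order of groups in these sums would hold after that scaling was not computed. Slow muscle markers (6 of 6 tested, 0 called in any comparison) summed to 1952 to 3208 TPM in bves KO-EX, 2400 to 3136 in bves KO and 1478 to 5238 in WT. Red blood cell markers (5 of 7 tested, 0 called) summed to 1102 to 1658 TPM in bves KO-EX, 868 to 1336 in bves KO and 678 to 1033 in WT, higher in every bves KO-EX than in every WT library, and their part in the results was not tested. Nerve and glia markers (4 of 5 tested, 0 called) summed to 163 to 228 TPM in bves KO-EX, 144 to 245 in bves KO and 130 to 157 in WT, again higher in every bves KO-EX than in every WT library, and their part was not tested either. Markers of skin, leukocytes, endothelium and adipocytes summed to 16.3 to 239 TPM, with 1 leukocyte marker called higher in bves KO-EX against WT. Those of liver and pancreas summed to at most 3.21 TPM. The 4 heart markers summed to 0.31 to 1.58 TPM, and of these myl7 and nppa were at 0 in all libraries.

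The level of the targeted gene was set beside the labels. bves had 47.4, 11.4 and 49.6 CPM in the libraries labelled bves KO-EX, 7.94, 17.5 and 6.70 CPM in bves KO and 39.5, 57.2 and 43.8 CPM in WT. Replicates 1 and 3 labelled bves KO-EX therefore lay in the WT range and replicate 2 in the bves KO range. Counts per gene do not hold the edited sequence, so the genotype of replicates 1 and 3 could not be checked, and in what follows the group names are those of the labels. Log2 fold changes of bves KO-EX are given for named genes also with replicate 2 as its only library, a fit in which edgeR tested 65 of the 83 genes and called 0 against bves KO and 0 against WT. In bves KO-EX against bves KO, bves gave a log2 fold change of 1.75 with all libraries (SE 0.542, edgeR adjusted p = 0.154) and of 0.08 with replicate 2 as the only bves KO-EX library. The log2 fold change of bves was -2.13 in bves KO against WT (SE 0.547, edgeR adjusted p = 0.104, between 0.00168 with DESeq2 and 0.297 over the alternatives).

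Few of the 60 tested genes passed a transcriptome-wide test. In bves KO against WT, edgeR called 0 of them at an adjusted p under 0.05, beside 1.11% of all 14849 genes tested. At an unadjusted p under 0.05, 11 of the 60 stood out in that comparison (8 higher and 3 lower, 18.3%, beside 8.60% higher and 8.30% lower, 16.9% in all, of the 14849 genes), and DESeq2 called 4 (txnipa, pdp1, pdk2b and slc16a9a, all higher), beside 4.38% of the genes it tested. In bves KO-EX against bves KO, edgeR called 0, beside 1.64% of all genes, 11 had an unadjusted p under 0.05 (4 higher and 7 lower, 18.3%, beside 8.51% and 6.82%, 15.3% in all), and DESeq2 called 3 (txnipb higher, ppp1r3ab and slc16a4 lower), beside 4.54%. In bves KO-EX against WT, edgeR called 1, slc16a4, which fell, beside 5.39% called in either direction and 2.34% called lower. In that comparison 17 of the 60 had an unadjusted p under 0.05 (12 higher and 5 lower, 28.3%, beside 12.5% and 12.6%, 25.1% in all), and DESeq2 called 6 (ppp1r3cb, pdk2b and txnipb higher, gyg1a, gyg1b and slc16a4 lower), beside 11.3%.

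Summed over both directions, these shares from the fit with all libraries lay near those of all genes. By direction they lay further apart. They were 20% of the 60 higher in bves KO-EX against WT, beside 12.5% of all genes, and 11.7% lower in bves KO-EX against bves KO, beside 6.82%. The median log2 fold change of the 60 was -0.06 in bves KO against WT, -0.15 in bves KO-EX against bves KO and -0.03 in bves KO-EX against WT, beside -0.03, 0.01 and 0.01 over all genes tested. Scaling by total counts put the all-gene median at 0.11 whether bves KO-EX was set against bves KO or WT, and that of the 60 at -0.07 against bves KO and 0.05 against WT. At an unadjusted p under 0.05, more members were lower than higher against bves KO, with all libraries and with bves KO-EX replicate 2 alone. Against WT, more were higher than lower with all libraries, but more were lower with replicate 2 as the only bves KO-EX library. The split by direction over all genes was not computed for that fit. A tilt of all genes in this library therefore cannot be told from a trait of the members. CPM of the groups did not overlap for 9 of the 60 in bves KO against WT (6 higher and 3 lower, 15.0%, beside 21.4% of all genes). It did not overlap for 13 in bves KO-EX against bves KO (7 higher and 6 lower, 21.7%, beside 23.0%) and for 19 in bves KO-EX against WT (16 higher and 3 lower, 31.7%, beside 28.0%). By direction the last of these was 26.7% higher, beside 15.0% of all genes, and 5% lower, beside 13%. The comparisons with bves KO-EX and with WT share libraries, and nothing in the labels shows that libraries of a group are more than separate pools of 2 fish, so a p-value measures the spread between these pools. In bulk muscle, fewer cells of a type and less RNA per cell cannot be told apart.

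**Figure D1:**
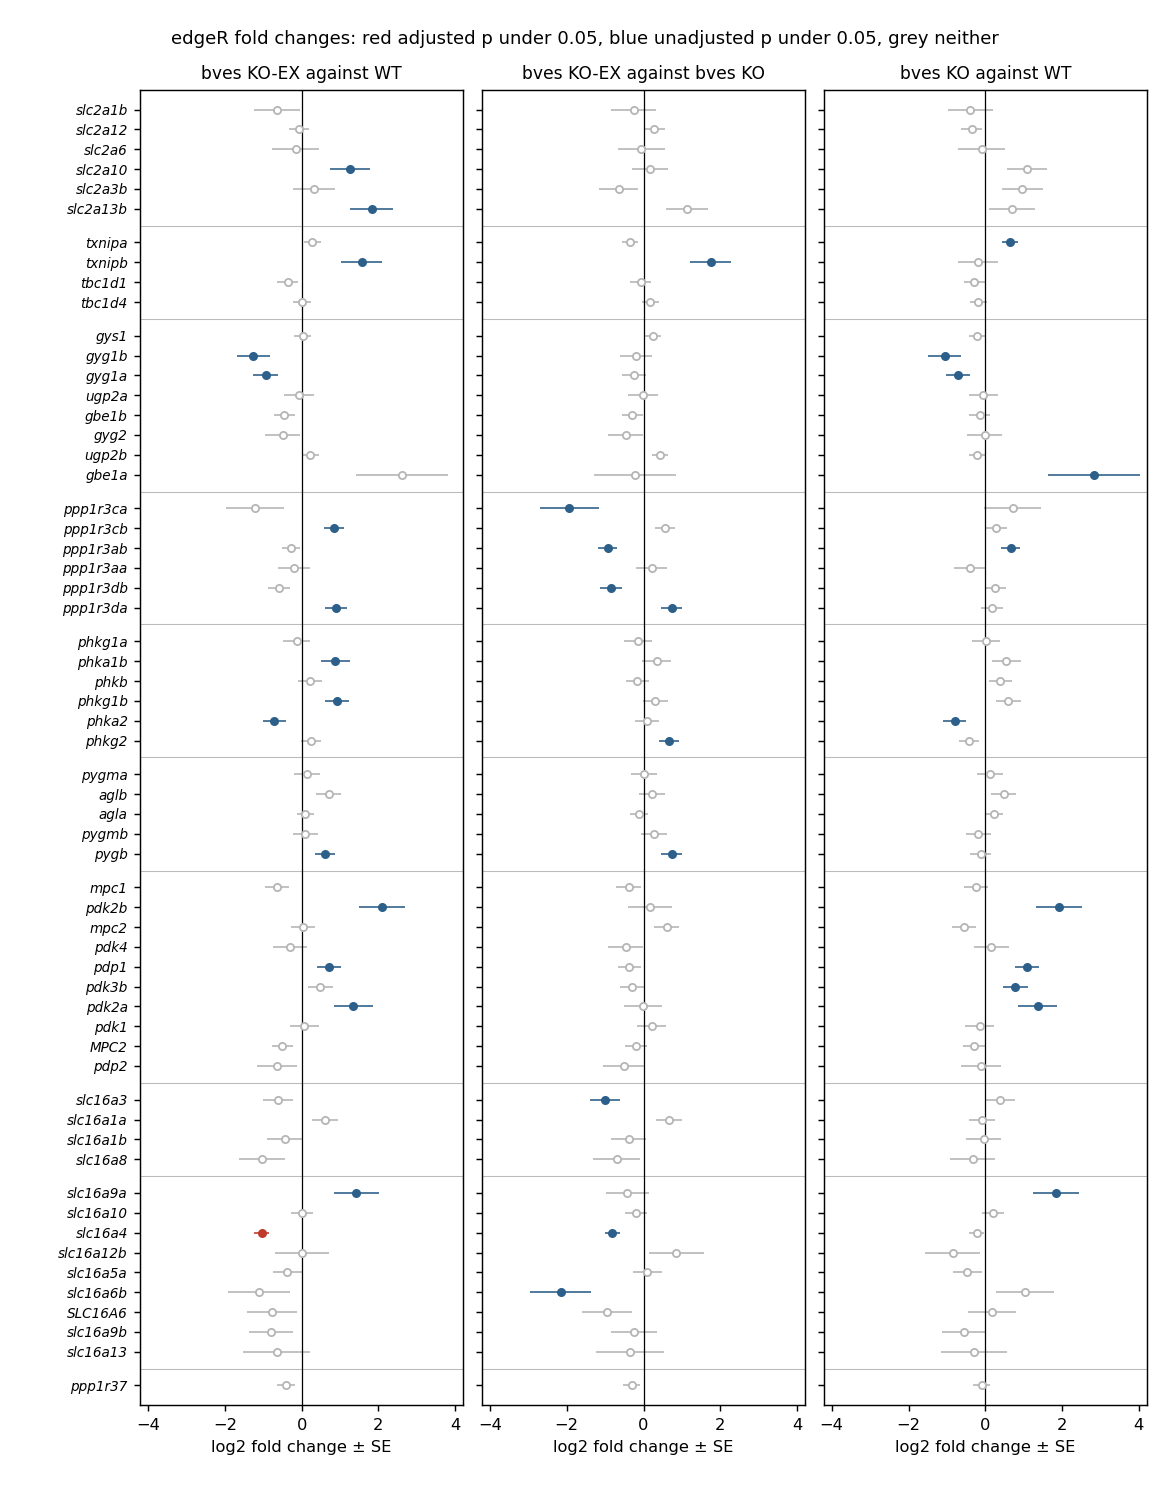
log2 fold change and SE (horizontal axis) of 59 of the 60 tested genes (rows, grouped by role) in bves KO-EX against WT, bves KO-EX against bves KO and bves KO against WT, with slc2a11a left out because it was at 0 in all bves KO-EX libraries. Only slc16a4, in bves KO-EX against WT, is red (edgeR adjusted p under 0.05), and the blue points, at an unadjusted p under 0.05, number 11 in bves KO against WT.

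Levels spanned several orders of magnitude, and each step of the pathway was carried by a few genes. The most abundant member on average was pygma, the main muscle glycogen phosphorylase gene, with TPM values of 305, 181 and 322 in bves KO-EX, 216, 311 and 259 in bves KO and 205, 168 and 309 in WT. It was followed by mpc1, for a subunit of the mitochondrial pyruvate carrier, with TPM values of 224, 166 and 170 in bves KO-EX, 302, 153 and 277 in bves KO and 240, 264 and 270 in WT. The values of both genes overlapped within every group. The summed TPM of all 83 was 2009, 1452 and 1759 in bves KO-EX, 1860, 1681 and 1667 in bves KO and 1499, 1133 and 1716 in WT. The 18 glucose transporter genes together reached only 6.1 to 25.1 TPM, against 234 to 467 TPM for the 6 genes of glycogen breakdown.

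**Figure D2:**
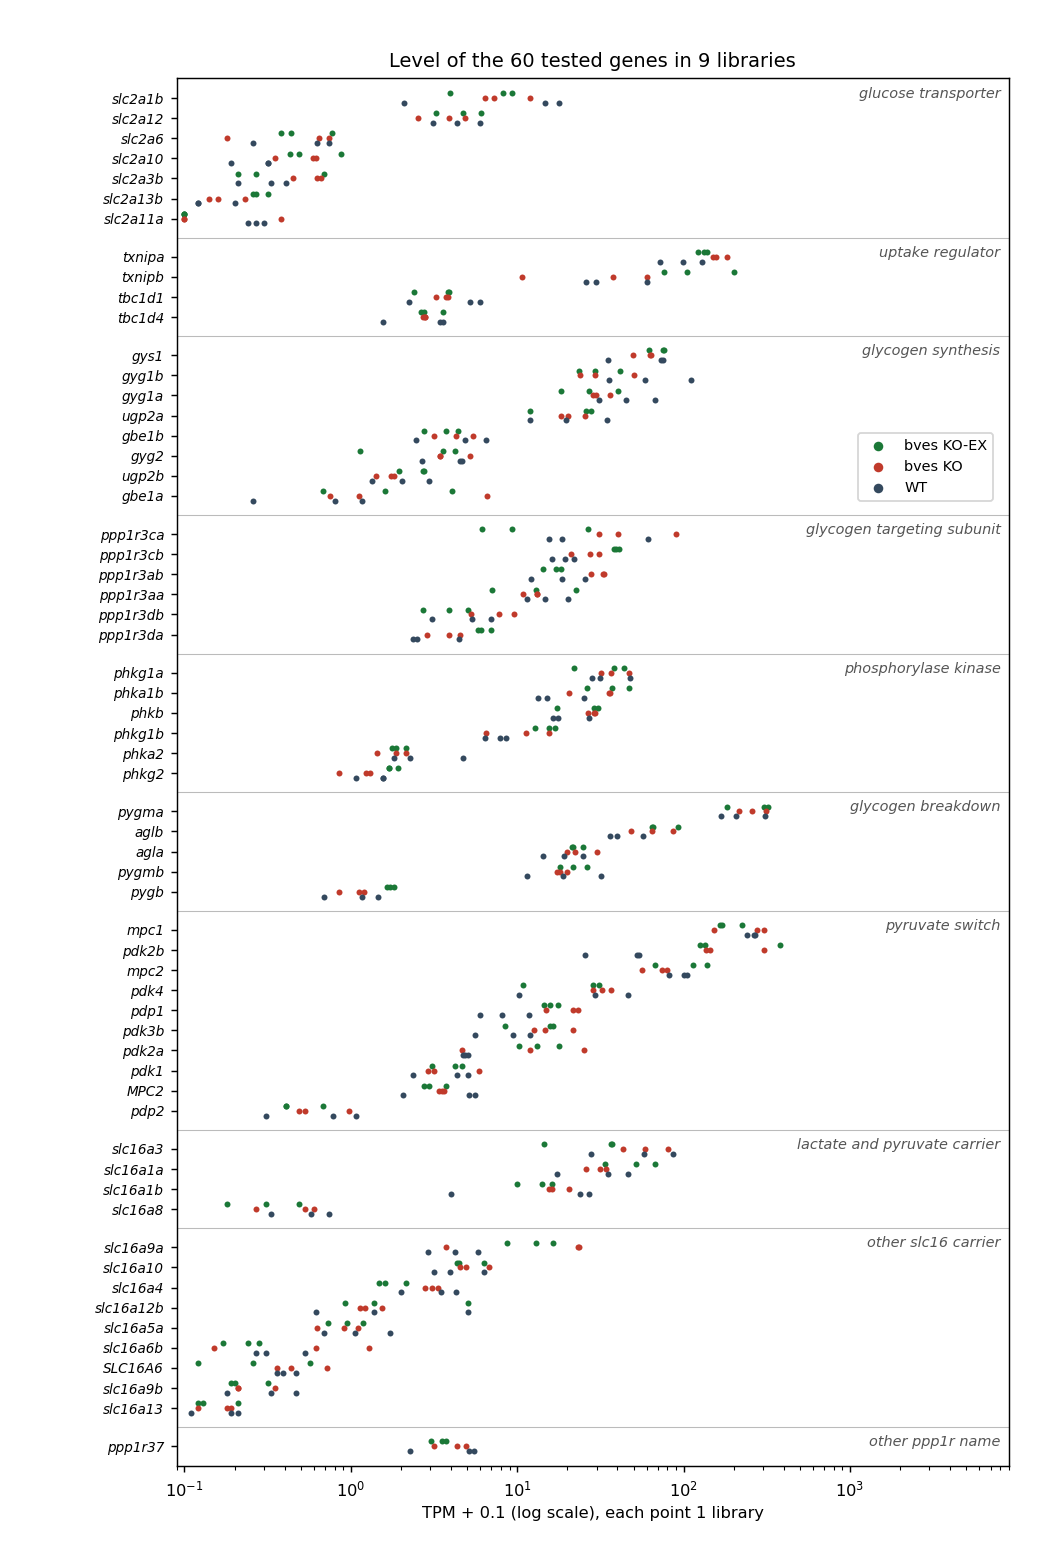
TPM + 0.1 on a log axis of the 60 tested genes (rows, grouped by role) in each of the 9 libraries, coloured by group. Levels run from 0 TPM for slc2a11a in bves KO-EX to 380 TPM for pdk2b in bves KO-EX replicate 1, and for most genes the points of the groups overlap.

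Among glucose transporters, slc2a1b was the most abundant on average and in 7 of the 9 libraries. It encodes a copy of the basal transporter GLUT1 and had 16.7, 5.58 and 13.6 CPM in bves KO-EX, 10.3, 12.9 and 19.6 CPM in bves KO and 21.5, 4.97 and 29.2 CPM in WT. The lowest and the highest library were both WT, and the groups overlapped throughout. The other copy, slc2a1a, was at 0 to 0.03 TPM and was not tested. slc2a12 stood at 2.45 to 5.92 TPM over all libraries, above slc2a1b in bves KO-EX replicate 2 (4.62 TPM, against 3.84) and WT replicate 2 (3.02 TPM, against 1.99), and the other 16 transporters were at 0.77 TPM or less in every library. No gene named slc2a4, the insulin-responsive transporter of mammalian muscle, was among the 18 glucose transporter genes found by name.

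Of the rare transporters, slc2a11a and slc2a13b were singled out after their values were seen. slc2a11a was at 0 CPM in all bves KO-EX libraries, at 0, 0 and 1.14 CPM in bves KO and at 0.623, 0.904 and 0.81 CPM in WT, which makes it at least 4.73-fold lower in bves KO-EX than in WT against a floor of 3 counts per library (edgeR adjusted p = 0.106). At this depth its absence from bves KO-EX muscle cannot be told from a very low level. slc2a13b, a copy of a gene for a proton-coupled inositol carrier in mammals, had 1.17, 1.17 and 0.979 CPM in bves KO-EX, 0.375, 0.865 and 0.272 CPM in bves KO and 0.527, 0.226 and 0.152 CPM in WT. Every bves KO-EX library lay above every other library, but the log2 fold change of 1.82 against WT (SE 0.571, edgeR adjusted p = 0.0862, 1.89 with replicate 2 alone) did not pass the threshold.

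The 2 genes for Txnip, an arrestin-like protein that restrains glucose uptake in mammals by removing transporters from the cell surface, differed from each other in pattern. txnipa had 384, 323 and 334 CPM in bves KO-EX, 479, 457 and 399 CPM in bves KO and 306, 289 and 264 CPM in WT. Its groups did not overlap in any comparison, with bves KO highest, bves KO-EX between and WT lowest. On the log2 scale the difference was 0.64 in bves KO against WT (SE 0.214, edgeR adjusted p = 0.172, DESeq2 adjusted p = 0.00397, up to 0.398 over the alternatives) and -0.36 in bves KO-EX against bves KO (SE 0.213, edgeR adjusted p = 0.479, -0.48 with replicate 2 alone).

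txnipb had 148, 314 and 189 CPM in bves KO-EX, 106, 20.7 and 67.3 CPM in bves KO and 95.6, 79.5 and 45.8 CPM in WT. All bves KO-EX libraries lay above all others, and the highest was replicate 2, the one with bves in the bves KO range. edgeR estimated a log2 fold change of 1.75 against bves KO (SE 0.538, edgeR adjusted p = 0.146, DESeq2 adjusted p = 0.0179, up to 0.326 over the alternatives) and 1.56 against WT (SE 0.535, edgeR adjusted p = 0.11, DESeq2 adjusted p = 0.0235, up to 0.254). With replicate 2 as the only bves KO-EX library, the values were 2.26 and 2.07 (edgeR adjusted p = 0.305 and 0.227). The share of txnipb in the summed TPM of both genes was 36.6%, 59.1% and 45.9% in bves KO-EX, 24.7%, 6.31% and 20% in bves KO and 31.9%, 29.2% and 20.7% in WT, so txnipb was the more abundant copy in a single library, bves KO-EX replicate 2.

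tbc1d1 and tbc1d4 encode Rab GTPase-activating proteins that retain transporter vesicles inside the cell until they are phosphorylated. tbc1d1 had 23, 11.1 and 21 CPM in bves KO-EX, 20.1, 18.5 and 19.3 CPM in bves KO and 22.3, 18.0 and 30.4 CPM in WT. tbc1d4 had 26.4, 16.3 and 18.2 CPM in bves KO-EX, 18.3, 18.3 and 16.9 CPM in bves KO and 21.9, 15.1 and 23.5 CPM in WT. For both genes the groups overlapped in all comparisons, and no unadjusted p was under 0.05.

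In glycogen synthesis, gys1 was the only glycogen synthase gene detected. It had 311, 211 and 286 CPM in bves KO-EX, 245, 225 and 214 CPM in bves KO and 253, 271 and 269 CPM in WT. All bves KO libraries lay below all WT libraries in CPM by a small margin (edgeR unadjusted p = 0.355), and bves KO-EX spanned both. The deposited TPM did not keep this order, with WT replicate 2 lowest of all libraries at 35.2, beside 49.4 to 64 in bves KO. The liver-type gene gys2 was at 0 in every library.

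Both glycogenin genes named gyg1, which encode the protein that primes a new glycogen particle, had lower mean levels in bves KO-EX and in bves KO than in WT. gyg1b had 39.8, 40.0 and 66.1 CPM in bves KO-EX, 45.1, 85.4 and 36.5 CPM in bves KO and 155, 138 and 55.3 CPM in WT. gyg1a had 50.3, 88.9 and 69.2 CPM in bves KO-EX, 74.0, 99.8 and 71.6 CPM in bves KO and 152, 171 and 77.9 CPM in WT. WT replicates 1 and 2 were above every bves KO-EX and bves KO library for both genes, and WT replicate 3 was not. The log2 fold change of gyg1b was -1.06 in bves KO (SE 0.425, edgeR adjusted p = 0.242) and -1.26 in bves KO-EX (SE 0.426, edgeR adjusted p = 0.105, -1.56 with replicate 2 alone), each against WT. For gyg1a it was -0.71 in bves KO (SE 0.316, edgeR adjusted p = 0.288) and -0.94 in bves KO-EX (SE 0.317, edgeR adjusted p = 0.101, -0.60 with replicate 2 alone). Without WT replicate 3, edgeR called both genes lower in bves KO-EX against WT, at -1.60 for gyg1b (adjusted p = 0.0336) and -1.22 for gyg1a (adjusted p = 0.032), and the highest edgeR adjusted p with 1 library left out was 0.262 and 0.255. The fit without WT replicate 3 also called 709 of all genes lower in that comparison, against 347 with all libraries.

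Of the other genes of synthesis, gbe1a was the most uneven. This gene and gbe1b encode branching enzyme. gbe1a had 6.67, 2.67 and 19 CPM in bves KO-EX, 5.2, 26.5 and 1.2 CPM in bves KO and 0.623, 2.64 and 1.47 CPM in WT. bves KO replicate 2 stood far above the rest of its group, and the log2 fold change in bves KO against WT was 2.84 with it (SE 1.2, edgeR adjusted p = 0.283) and 1.08 without it. In bves KO-EX against WT the log2 fold change of gbe1a was 2.62 (SE 1.2, edgeR adjusted p = 0.218), and 0.79 with replicate 2 alone. Every bves KO-EX library lay above every WT library, at the closest by 2.67 against 2.64 CPM. gbe1b lay between 2.36 and 6.42 TPM in all libraries. ugp2a, for the enzyme that makes UDP-glucose, lay between 11.8 and 34.5 TPM and made up 82.0% to 94.7% of the TPM of the ugp2 pair, and its groups overlapped throughout.

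The glycogen targeting subunits had the highest share of genes with no overlap between bves KO-EX and bves KO among the classes of this set. This was 5 of 6 tested genes, beside 23.0% of all genes. The classes are small, with 1 to 10 tested genes each, and this ranking was made after the values were seen. The direction was split, with ppp1r3ca, ppp1r3ab and ppp1r3db lower and ppp1r3cb and ppp1r3da higher in bves KO-EX, and none passed edgeR's threshold. These genes other than ppp1r3ca are named after their values were seen. In mammals, PPP1R3A is the subunit typical of striated muscle and PPP1R3C a widely expressed one.

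ppp1r3ca, the most abundant of them on average, had 59.5, 10.8 and 19.1 CPM in bves KO-EX, 80.8, 198 and 62.4 CPM in bves KO and 28.3, 56.8 and 123 CPM in WT. The highest bves KO-EX library lay just below the lowest bves KO library, and WT overlapped both groups. Set against bves KO, bves KO-EX differed by -1.93 on the log2 scale (SE 0.771, edgeR adjusted p = 0.274), and by -3.41 with replicate 2 alone. ppp1r3ab had 110, 73.8 and 112 CPM in bves KO-EX, 191, 179 and 196 CPM in bves KO and 99.1, 108 and 152 CPM in WT. The bves KO libraries were close together and above all others. Its log2 fold change was -0.93 in bves KO-EX against bves KO (SE 0.246, edgeR adjusted p = 0.0919, DESeq2 adjusted p = 0.00439, up to 0.255 over the alternatives) and 0.66 in bves KO against WT (SE 0.245, edgeR adjusted p = 0.214). With replicate 2 alone for bves KO-EX, the first of these was -1.37 (edgeR adjusted p = 0.215).

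ppp1r3cb lay the other way. It had 112, 85.4 and 97.3 CPM in bves KO-EX, 67.6, 57.1 and 76.8 CPM in bves KO and 36.3, 73.6 and 55.0 CPM in WT. Every bves KO-EX library was above every bves KO and every WT library. Its log2 fold change was 0.55 against bves KO (SE 0.261, edgeR adjusted p = 0.349, 0.33 with replicate 2 alone) and 0.84 against WT (SE 0.262, edgeR adjusted p = 0.0851, DESeq2 adjusted p = 0.0345, up to 0.438 over the alternatives, 0.62 with replicate 2 alone), and scaling by total counts made the second a call, at 1.0 (edgeR adjusted p = 0.0434).

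The makeup of the family differed accordingly. ppp1r3cb made up 34.5%, 52.0% and 43.0% of the summed ppp1r3 TPM in bves KO-EX, 22.1%, 13.1% and 25.4% in bves KO and 22.2%, 29.1% and 15.7% in WT, and it was the largest single contributor in all 3 bves KO-EX libraries. ppp1r3ca made up 22.4%, 8.14% and 10.4% in bves KO-EX, 32.7%, 56.2% and 25.5% in bves KO and 21.5%, 27.8% and 43.4% in WT. The summed TPM of the family was 119, 74.7 and 88.1 in bves KO-EX, 123, 159 and 121 in bves KO and 72.3, 66.6 and 140 in WT. In these sums every bves KO-EX library was below every bves KO library, at the closest only by 119 against 121. The sums are not scaled by TMM, and whether so small a margin would hold on that scale was not computed.

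The 2 scarcer subunits followed the same split. ppp1r3db had 14.8, 7.6 and 9.51 CPM in bves KO-EX, 18.8, 14.9 and 24 CPM in bves KO and 14.1, 13.7 and 20.3 CPM in WT (log2 fold change -0.85 in bves KO-EX against bves KO, SE 0.28, edgeR adjusted p = 0.163, -1.35 with replicate 2 alone). Its bves KO-EX and bves KO libraries were separated only narrowly, at 14.8 against 14.9 CPM. ppp1r3da had 11.2, 7.83 and 8.70 CPM in bves KO-EX, 6.54, 4.50 and 5.66 CPM in bves KO and 3.02, 5.42 and 6.48 CPM in WT (log2 fold change 0.73 in bves KO-EX against bves KO, SE 0.285, edgeR adjusted p = 0.244, 0.47 with replicate 2 alone). ppp1r3aa, the sixth, ranged from 30.5 to 123 CPM within bves KO-EX alone and overlapped in all comparisons.

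**Figure D3:**
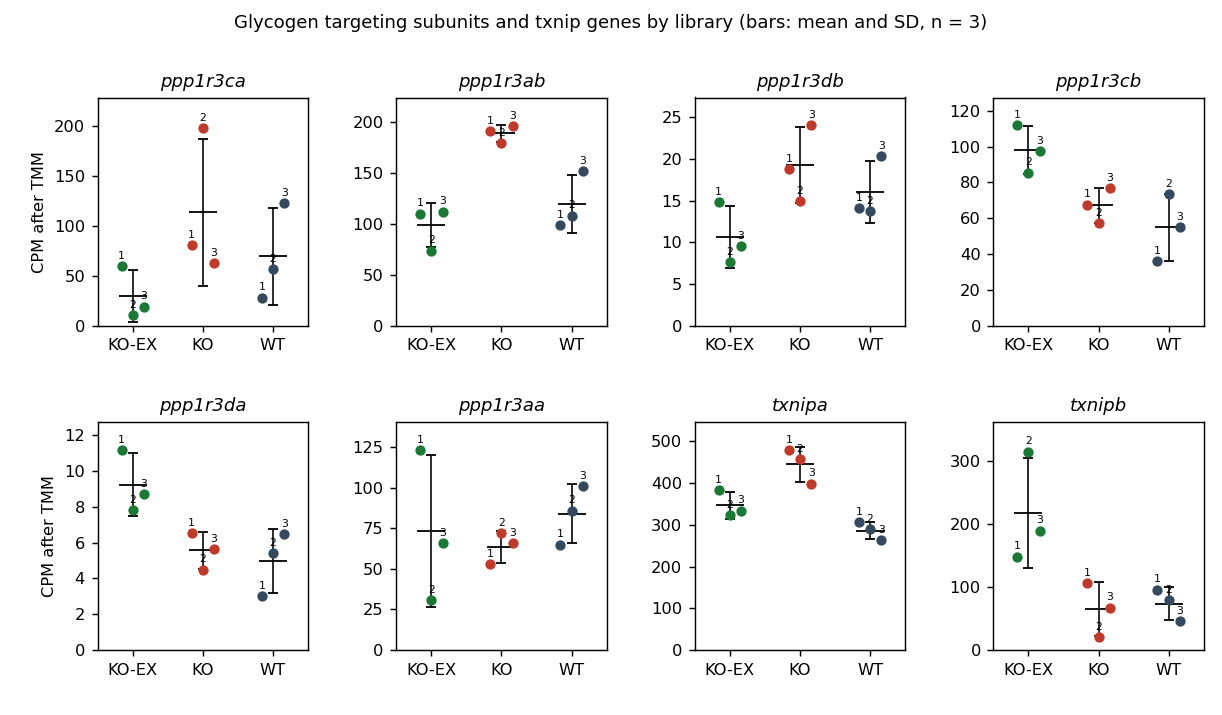
CPM after TMM scaling (vertical axis, from 0) of 6 glycogen targeting subunit genes and of txnipa and txnipb in bves KO-EX, bves KO and WT, with 1 numbered point per library and bars for the mean and SD (n = 3). ppp1r3ca, ppp1r3ab and ppp1r3db lie lower, and ppp1r3cb, ppp1r3da and txnipb higher, in all bves KO-EX than in all bves KO libraries.

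Phosphorylase kinase and the enzymes of breakdown gave no call in any comparison, with DESeq2 as with edgeR. An unadjusted p under 0.05 was reached by 1 of their 11 tested genes in bves KO against WT, 2 in bves KO-EX against bves KO and 4 in bves KO-EX against WT, beside 16.9%, 15.3% and 25.1% of all genes. The catalytic subunit gene phkg1a had 110, 48.3 and 121 CPM in bves KO-EX, 96.4, 139 and 71.4 CPM in bves KO and 75.2, 114 and 117 CPM in WT, and its groups overlapped throughout. phkb, for a regulatory subunit, lay between 63.8 and 134 CPM in all libraries. phka1b, for the muscle-type regulatory subunit, had 349, 236 and 500 CPM in bves KO-EX, 186, 412 and 262 CPM in bves KO and 123, 234 and 232 CPM in WT. Its bves KO-EX libraries were above its WT libraries, at the closest by less than the spread within either group (log2 fold change 0.88, SE 0.383, edgeR adjusted p = 0.18, 0.25 with replicate 2 alone). phkg1b, a second catalytic subunit gene, had 24.8, 24.6 and 28.5 CPM in bves KO-EX, 11.9, 30.3 and 20.5 CPM in bves KO and 9.73, 18.7 and 13 CPM in WT (log2 fold change 0.92 in bves KO-EX against WT, SE 0.323, edgeR adjusted p = 0.114, 0.82 with replicate 2 alone).

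In breakdown, pygma made up 90.2% to 93.7% of the phosphorylase TPM in every library. It had 885, 420 and 873 CPM in bves KO-EX, 565, 897 and 683 CPM in bves KO and 487, 672 and 816 CPM in WT, and each group reached into the range of the others. The debranching enzyme genes aglb and agla stood at 36.0 to 92.2 TPM and 14.2 to 30.2 TPM. aglb had 314, 243 and 419 CPM in bves KO-EX, 241, 392 and 204 CPM in bves KO and 138, 225 and 237 CPM in WT, higher in all bves KO-EX than in all WT libraries with an unadjusted edgeR p of 0.0558. pygmb, the second muscle-type phosphorylase, lay between 36.1 and 84.2 CPM and overlapped in all comparisons.

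Within the pyruvate switch, the largest log2 fold changes against WT were those of the kinase gene pdk2b. pdk2b had 885, 236 and 293 CPM in bves KO-EX, 635, 319 and 306 CPM in bves KO and 48.2, 174 and 110 CPM in WT. All 3 bves KO-EX and all 3 bves KO libraries were above all WT libraries, including bves KO-EX replicates 1 and 3 with bves in the WT range, and replicate 1 of bves KO-EX and replicate 1 of bves KO stood apart above the others of their groups. On the log2 scale the difference was 1.92 in bves KO against WT (SE 0.604, edgeR adjusted p = 0.155, DESeq2 adjusted p = 0.0144, up to 0.367 over the alternatives) and 2.09 in bves KO-EX against WT (SE 0.607, edgeR adjusted p = 0.0755, DESeq2 adjusted p = 0.00357, up to 0.428). Both comparisons use the same WT libraries. In bves KO-EX against bves KO it was 0.17, with an SE of 0.583 (edgeR adjusted p = 0.937) that is too wide to exclude a change of 2-fold either way. With replicate 2 alone for bves KO-EX, pdk2b was 1.07 against WT and -0.85 against bves KO. The summed TPM of the 6 pdk genes was 449, 161 and 194 in bves KO-EX, 382, 188 and 213 in bves KO and 73.5, 76.4 and 120 in WT. bves KO-EX replicate 1, the highest of all, was also the library with 23.4% of its counts in mitochondrially encoded genes. In a fit without these genes, 0 of the 54 log2 fold changes followed over the alternatives, those of pdk2b among them, changed sign or side of the threshold. The part of the high mitochondrial share in the summed TPM was not tested.

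The other kinases varied among themselves. pdk2a had 72.4, 42.5 and 38.6 CPM in bves KO-EX, 92.6, 18.5 and 44.2 CPM in bves KO and 15.9, 26.1 and 18.3 CPM in WT, with a log2 fold change of 1.37 in bves KO (SE 0.507, edgeR adjusted p = 0.218) and 1.35 in bves KO-EX (SE 0.506, edgeR adjusted p = 0.137, 1.06 with replicate 2 alone), each against WT. bves KO replicate 2 fell inside the WT range. pdk3b had 18.3, 7.69 and 16.7 CPM in bves KO-EX, 15.2, 14.6 and 22.4 CPM in bves KO and 8.92, 8.74 and 12.8 CPM in WT, higher in all bves KO than in all WT libraries (log2 fold change 0.78, SE 0.318, edgeR adjusted p = 0.248). pdk4, a kinase gene induced by fasting in mammals, showed no such order, with 163, 47.5 and 135 CPM in bves KO-EX, 172, 147 and 156 CPM in bves KO and 126, 78.3 and 222 CPM in WT. Its unadjusted edgeR p was 0.738 in bves KO against WT. pdk3a was at 0 to 0.35 TPM and was not tested.

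The phosphatase gene pdp1, whose product opposes these kinases and which is named here after its values were seen, was likewise lowest in WT. It had 30.4, 26.4 and 34.7 CPM in bves KO-EX, 28.2, 48.7 and 41.3 CPM in bves KO and 10.2, 23.3 and 22.4 CPM in WT. All bves KO-EX and all bves KO libraries were above all WT libraries. edgeR estimated a log2 fold change of 1.08 in bves KO against WT (SE 0.31, edgeR adjusted p = 0.119, DESeq2 adjusted p = 0.0375, up to 0.299 over the alternatives) and 0.71 in bves KO-EX against WT (SE 0.309, edgeR adjusted p = 0.18, 0.49 with replicate 2 alone). It was -0.37 in bves KO-EX against bves KO (SE 0.306, edgeR adjusted p = 0.652, -0.59 with replicate 2 alone).

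Carrier genes for pyruvate did not follow. The carrier of the mitochondrial inner membrane is built from the products of mpc1 and mpc2. mpc1 had 130, 76.7 and 90.4 CPM in bves KO-EX, 158, 87.8 and 144 CPM in bves KO and 112, 210 and 141 CPM in WT. mpc2 had 159, 61.9 and 121 CPM in bves KO-EX, 82.5, 84.4 and 58.4 CPM in bves KO and 94.1, 130 and 108 CPM in WT. The bves KO libraries were below the WT libraries for mpc2, although the gene was not called, whereas those of bves KO-EX reached from the bves KO range to above WT. A second gene ID spelled MPC2 was far scarcer, at 1.96 to 5.46 TPM, and reads of a pair of IDs with 1 name may have been split between them.

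**Figure D4:**
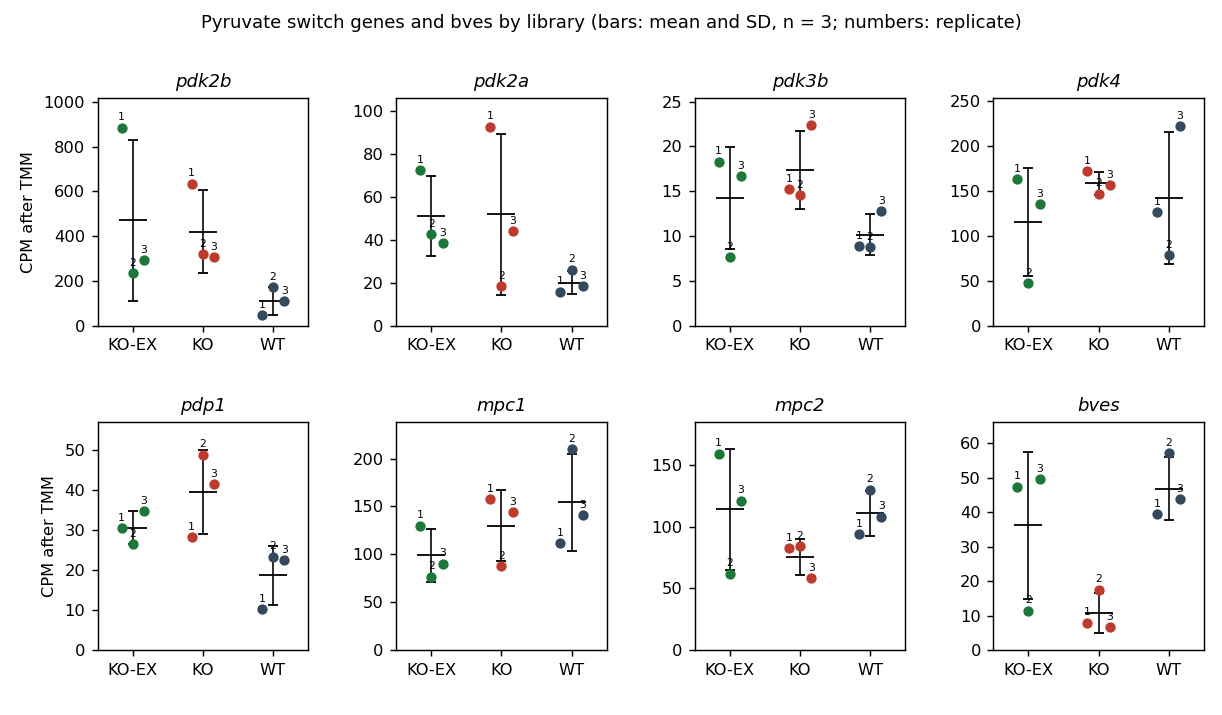
CPM after TMM scaling (vertical axis, from 0) of 7 pyruvate switch genes and of bves in bves KO-EX, bves KO and WT, with 1 numbered point per library and bars for the mean and SD (n = 3). All libraries labelled bves KO-EX or bves KO lie above all WT libraries for pdk2b and pdp1, and replicates 1 and 3 labelled bves KO-EX lie in the WT range for bves.

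Of the carriers of lactate and pyruvate, slc16a3 and slc16a1a together made up most of the TPM, and their balance differed in bves KO-EX. In mammals the product of SLC16A3 exports lactate from glycolytic fibres, and that of SLC16A1 has a higher affinity and is typical of oxidative fibres. slc16a1a took 55.6%, 57.9% and 50.3% of the summed TPM of the 7 carriers in bves KO-EX, 34.8%, 26.1% and 24.6% in bves KO and 29.6%, 35.0% and 28.8% in WT. slc16a3 took 30.6%, 24.7% and 35.6% in bves KO-EX, 47.6%, 61.1% and 55.7% in bves KO and 49.5%, 56.4% and 53.9% in WT. The larger of the pair was thus slc16a1a in all bves KO-EX libraries and slc16a3 in all 6 others. This pattern was noticed in the values and carries no test.

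The order of the shares was the same when they were computed from counts per annotated length, which was tried after the TPM shares were seen because the deposited counts and TPM imply a length for slc16a3 that runs from 1870 to 3119 bases between libraries. slc16a1a then took 57.6%, 59.6% and 59.8% in bves KO-EX, 36.8%, 33.1% and 30.8% in bves KO and 36.8%, 42.8% and 38.5% in WT. slc16a3 took 29.5%, 24.1% and 24.8% in bves KO-EX, 46.6%, 53.1% and 47.2% in bves KO and 39.1%, 47.7% and 40.5% in WT. Replicate 2 of bves KO-EX, with bves in the bves KO range, thus lay with replicates 1 and 3.

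Taken singly, neither gene passed the test. slc16a3 had 117, 36.5 and 66.9 CPM in bves KO-EX, 123, 197 and 123 CPM in bves KO and 99.9, 89.5 and 150 CPM in WT. All bves KO-EX libraries were below all bves KO libraries (log2 fold change -1.01, SE 0.394, edgeR adjusted p = 0.241), and they overlapped with WT (log2 fold change -0.62, SE 0.391, edgeR adjusted p = 0.348). slc16a1a had 186, 73.9 and 132 CPM in bves KO-EX, 79.5, 101 and 65.5 CPM in bves KO and 76.8, 65.6 and 116 CPM in WT. Its log2 fold change was 0.67 against bves KO (SE 0.341, edgeR adjusted p = 0.387) and 0.60 against WT (SE 0.34, edgeR adjusted p = 0.302). With replicate 2 alone for bves KO-EX it changed sign, to -0.16 against bves KO and -0.24 against WT, while slc16a3 stood at -2.03 and -1.65.

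The call of the whole set was slc16a4, a member of the slc16 family outside the established lactate carriers. It had 6.0, 7.03 and 5.87 CPM in bves KO-EX (6.30 ± 0.636, SD, n = 3), 10.9, 11.7 and 10.5 CPM in bves KO (11 ± 0.63, SD, n = 3) and 11.8, 11.4 and 15.6 CPM in WT (13 ± 2.33, SD, n = 3). All bves KO-EX libraries were below all others, while bves KO and WT overlapped. Its log2 fold change was -1.04 in bves KO-EX against WT (SE 0.189, edgeR adjusted p = 0.0169), -0.81 in bves KO-EX against bves KO (SE 0.189, edgeR adjusted p = 0.0644, DESeq2 adjusted p = 0.00846, up to 0.474 over the alternatives, -0.67 with replicate 2 alone) and -0.23 in bves KO against WT (SE 0.186, edgeR adjusted p = 0.547). The difference from WT ranged over adjusted p-values of 0.000119 with DESeq2 to 0.212, and it was no longer called with total-count scaling (-0.94, edgeR adjusted p = 0.0779), without bves KO-EX replicate 1 (-1.0, edgeR adjusted p = 0.058) or without replicate 3 (-1.0, edgeR adjusted p = 0.0704). With replicate 2 as the only bves KO-EX library it was -0.90 (edgeR adjusted p = 0.212). The level was low, at 1.38 to 4.16 TPM.

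**Figure D5:**
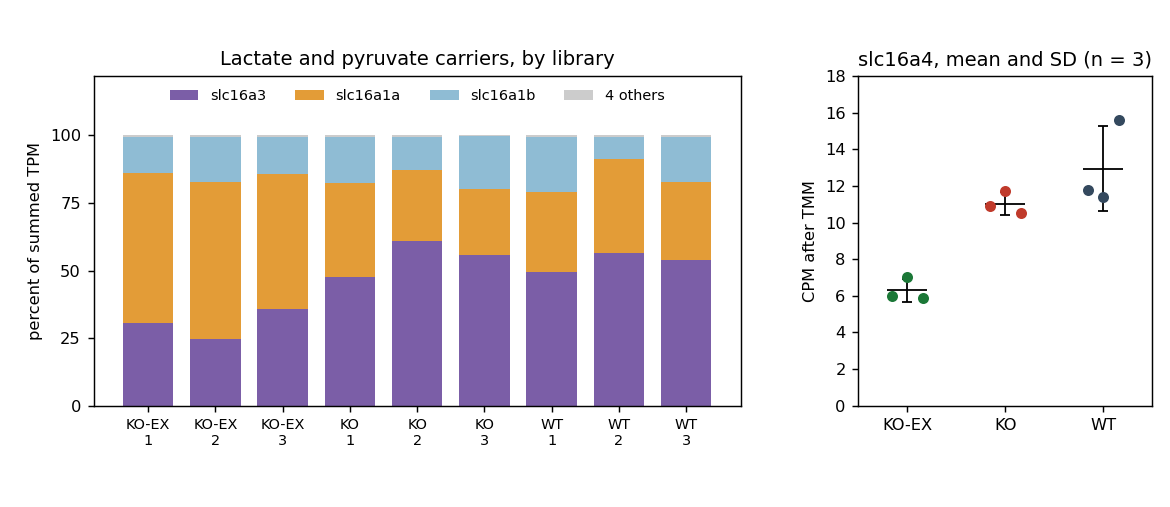
Left, share of slc16a3, slc16a1a, slc16a1b and 4 other lactate and pyruvate carriers in their summed TPM (percent, vertical axis) in each of the 9 libraries. Right, CPM of slc16a4 by group with 1 point per library and the mean and SD (n = 3): the bves KO-EX libraries sit between 5.87 and 7.03, below all bves KO and WT libraries.

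Of the other slc16 carriers, slc16a9a was the most abundant on average, though below slc16a10 in bves KO replicate 2 and WT replicates 1 and 3, and it has a human counterpart that exports carnitine. slc16a9a had 28.2, 33.1 and 49.9 CPM in bves KO-EX, 68.1, 11.9 and 68.8 CPM in bves KO and 14.5, 18.6 and 8.51 CPM in WT. bves KO replicate 2 lay among the WT libraries and the other 5 libraries labelled bves KO-EX or bves KO above them. On the log2 scale the difference was 1.84 in bves KO (SE 0.589, edgeR adjusted p = 0.169, DESeq2 adjusted p = 0.0199, up to 0.4 over the alternatives) and 1.42 in bves KO-EX (SE 0.584, edgeR adjusted p = 0.17, from 0.034 to 0.502, and 1.24 with replicate 2 alone), each against WT. Without bves KO replicate 2, edgeR called it in both, at 2.31 (adjusted p = 0.0152) and 1.42 (adjusted p = 0.034). ppp1r37, the only tested gene of the 3 that match by digits, lay between 12.3 and 22.2 CPM with all groups overlapping.

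A wider list of 47 gene names was set around these steps. It covered hexokinases, phosphoglucomutases, pyruvate dehydrogenase, lactate dehydrogenases and lysosomal or glycogen-bound proteins. Glycogen synthase kinases, catalytic subunits of protein phosphatase 1 and partners of the carriers and of Txnip were also listed. Of the 47 names, 42 were found and 34 were tested. The name dld, listed with pyruvate dehydrogenase beside dldh, was found but not tested, and it may not be a subunit. edgeR called 0 in bves KO against WT (2 higher and 1 lower at an unadjusted p under 0.05, 0 with DESeq2) and 0 in bves KO-EX against bves KO (3 higher and 3 lower, 1 with DESeq2). In bves KO-EX against WT it called 1, ppp1cab, a catalytic subunit of protein phosphatase 1, which fell (log2 fold change -0.83, SE 0.208, edgeR adjusted p = 0.0441), with 3 higher and 5 lower at an unadjusted p under 0.05 and 2 lower with DESeq2. Among all genes, in the same order of comparisons, 16.9%, 15.3% and 25.1% had an unadjusted edgeR p under 0.05. edgeR called 1.11%, 1.64% and 5.39% of all genes, and DESeq2 called 4.38%, 4.54% and 11.3% of those it tested. ppp1cab had TPM values of 2.73, 2.78 and 2.00 in bves KO-EX, 4.24, 4.96 and 3.98 in bves KO and 4.71, 3.01 and 4.52 in WT. Its adjusted p ran from 0.00855 to 0.228 over alternatives applied after the data were seen, and edgeR no longer called it in 8 of 9 fits with 1 library left out (log2 fold change -0.97 to -0.71). The main lactate dehydrogenase gene ldha and the pyruvate dehydrogenase subunit gene pdha1a stood at 243 to 610 TPM and 220 to 371 TPM, with overlapping groups.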

How the data were processed

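Skeletal muscle RNA (polyA-selected, stranded libraries) was sequenced from 3 libraries each of bves KO-EX, bves KO and WT fish, grouped by their labels. The submitters' processing notes name fastp, HISAT2, StringTie and RSEM. Versions and genome build are not given in the sources used here. The authors deposited estimated counts and TPM per gene and library, and columns with their own fold changes and p-values between groups, which were not used. TPM as the authors deposited them are scaled for gene length and served for comparisons between genes.

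Estimated counts were rounded (9.01% to 11.8% of all values in a library were not whole) and filtered with filterByExpr, leaving 14849 genes. They were scaled by TMM and tested over all 9 libraries with edgeR 4.0.16 (limma 3.58.1, R 4.3.3, quasi-likelihood, robust, two-sided), p-values were adjusted after Benjamini and Hochberg across the whole table, and genes were called at an adjusted p under 0.05. The SE is the log2 fold change divided by the root of F. Libraries held 17422188 to 18860779 counts. p-values cover the spread between libraries. Alternatives were DESeq2 1.42.0, other scalings and filters, only the 6 libraries compared, mitochondrially encoded genes removed, a replicate block, each library left out, and bves KO-EX replicates 1 and 3 left out together. The steps were tested on simulated data.

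Replicates with the same number did not deviate together in every comparison (the paired check is given with the dependence on processing). Described singly were genes that passed the threshold, the most abundant gene of each role and a fixed list of muscle or main isoforms, with other genes marked where they appear. The genes, roles, wider pathway list and marker lists were chosen with earlier results of these data known. Gene names are those of the files, and no sequence is shown.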

Additional observations from a re-analysis of the deposited data

How the results depend on the processing

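The calls among the 60 tested genes depended on the tool and on single libraries. DESeq2 called 4 higher in bves KO against WT, 1 higher and 2 lower in bves KO-EX against bves KO, and 3 higher and 3 lower in bves KO-EX against WT. In the last comparison, scaling by total counts gave 1 higher (ppp1r3cb) and 0 lower, a fit of only the 6 libraries gave 2 lower (slc16a4 and slc2a11a), and leaving out bves KO-EX replicates 1 and 3 together gave 0 lower. With each library left out in turn, calls in bves KO against WT were 0 to 1 higher (1 without bves KO replicate 2), those in bves KO-EX against bves KO 0 to 1 lower (1 without WT replicate 3 and 1 without bves KO replicate 2), and those in bves KO-EX against WT 0 to 2 higher (2 without bves KO replicate 2) and 0 to 3 lower (0 without bves KO-EX replicate 1 or replicate 3, 2 without bves KO replicate 3 and 3 without WT replicate 3). Calls among all genes moved widely in the same fits. They ran from 25 to 151 higher and 8 to 96 lower in bves KO against WT. In bves KO-EX against bves KO they ran from 2 to 110 higher and 18 to 145 lower. In bves KO-EX against WT they ran from 93 to 426 higher and 57 to 709 lower, with 709 also without WT replicate 3. Of 54 log2 fold changes followed over 537 other settings, 515 kept their direction and side of the threshold, 2 left it, 17 passed it (14 with DESeq2) and 3 changed sign. Those were slc16a1a, at -0.16 against bves KO and -0.24 against WT, and pdk2b, at -0.85 in bves KO-EX against bves KO, all without bves KO-EX replicates 1 and 3. Of 486 values with 1 library left out, 8 changed sign, within ranges of -0.24 to 0.20 for slc16a1a and -0.74 to 0.24 for txnipb, both in bves KO against WT, -0.66 to 0.59 for pdk2b in bves KO-EX against bves KO and -0.68 to 0.06 for bves in bves KO-EX against WT. Beyond the libraries left out, the cause was not tested.

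The labels do not say whether same-numbered libraries belong together, and the correlations differed between the comparisons. The correlation of deviations between same-numbered libraries was 0.00874, 0.149 and 0.178 for bves KO with WT, beside -0.232 to 0.0763 between differently numbered libraries. It was -0.0237, -0.287 and -0.112 for bves KO-EX with bves KO, beside -0.189 to 0.243. For bves KO-EX with WT it was -0.0431, 0.000815 and 0.0243, beside -0.152 to 0.152. With the replicate block, 0 of the 60 were called in bves KO against WT and in bves KO-EX against bves KO and 1 lower, slc16a4, in bves KO-EX against WT. Among all genes the block gave 85 higher and 42 lower, 52 higher and 95 lower, and 328 higher and 287 lower in these comparisons, against 112 and 53, 107 and 136, and 454 and 347 without it. Precision was limited by 3 libraries of 2 pooled fish a group and, for genes such as slc2a11a (0 to 21 counts per library), by depth.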

Other observations

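The deposited counts and TPM of a gene imply an effective length in each library, and for slc16a3 it was 3090, 3119 and 1919 bases in bves KO-EX, 3119, 2426 and 2268 bases in bves KO and 2055, 2286 and 1870 bases in WT, beside 2973 bases in the annotation. The longest was 1.67 times the shortest, and slc16a3 was the only one of 28 members with at least 200 counts in every library to pass 1.5 times, as did 4.47% of 3153 genes measured so deeply. The split of reads between its transcripts was not analysed here.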
